A study of Mus musculus with 9 samples.

Results

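Potassium channel genes were examined in sorted keratinocytes of mouse back skin. They were taken as all protein-coding genes whose symbol begins with Kcn, and those with a mean of at least 0.5 TPM (a length-scaled relative abundance) in any group were described as members. Of 94 such genes among the 55357 gene identifiers of the deposited table, 36 met this level and 58 did not. Of the 58, 23 were listed at 0 in every library. Grouped by symbol prefix, the members comprised 7 of 14 tandem-pore genes, 4 of 15 inward rectifiers, 11 of 40 voltage-gated pore-forming subunits, 5 of 8 calcium- or sodium-activated subunits and 9 of 17 auxiliary genes. The nearest genes above the level were Kcnn2 at 0.537 TPM and Kcnq3 at 0.57 TPM in Touchdome. Just under it lay Kcnn4 at 0.497 TPM and Kcnj14 at 0.483 TPM in Touchdome, and Kcns1 at 0.45 TPM in HF.

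Messenger RNA was measured by poly(A) RNA-seq in 9 libraries, 3 from each of 3 sorts, numbered as in their titles. The title of the series frames the question as how touch dome keratinocytes that make Tenascin-C relate to the epidermal lineages. All mice were C57BL/6 by background, carried TNC-CREER and tdTomato, received tamoxifen at 100 µg per g body weight on postnatal days 51 and 52, and were sampled at postnatal day 60. All sorted cells were positive for EPCAM and integrin α6, which mark basal epithelial cells. Touchdome cells were also positive for SCA1 and for the tdTomato reporter. HF (hair follicle) cells lacked SCA1 and the reporter, and IFE (interfollicular epidermis) cells had SCA1 but lacked the reporter. The reporter marks cells in which the Tnc gene drove Cre when tamoxifen was given, whatever their position in the skin. Whether replicate libraries came from different mice is not stated in the labels, so the p-values reflect only the spread among these samples, and that spread may be technical.

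Potassium channels let potassium ions leave or enter a cell along their electrochemical gradient and so set its membrane potential. Tandem-pore channels carry a steady leak, inward rectifiers pass current best near the resting potential, voltage-gated channels open on depolarization, and calcium-activated channels open when cytosolic calcium rises. Auxiliary subunits carry no current of their own and change the gating, trafficking or assembly of the pore-forming subunits. In skin, potassium channels are studied mostly for membrane potential, calcium entry and differentiation of keratinocytes, and for the excitability of sensory endings.

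The promoter windows of 2 genes on which the results turn are shown. Kcne4 was found mainly in Touchdome, and Kcnma1 was called above IFE in HF and, at a lower level than in HF, in Touchdome. The sequences are the 250 bases before the annotated start in RefSeq (GRCm38.p6), written 5′ to 3′ on the strand of the gene, and capitals mark TATATA. Kcne4 lies on the plus strand at chr1:78816661-78816910, and Kcnma1 on the minus strand at chr14:24004206-24004455.
Kcne4: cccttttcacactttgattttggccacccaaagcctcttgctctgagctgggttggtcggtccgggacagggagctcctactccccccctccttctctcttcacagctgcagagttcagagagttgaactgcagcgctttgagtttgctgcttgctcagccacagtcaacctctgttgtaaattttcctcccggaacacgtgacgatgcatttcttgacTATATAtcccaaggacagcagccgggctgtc
Kcnma1: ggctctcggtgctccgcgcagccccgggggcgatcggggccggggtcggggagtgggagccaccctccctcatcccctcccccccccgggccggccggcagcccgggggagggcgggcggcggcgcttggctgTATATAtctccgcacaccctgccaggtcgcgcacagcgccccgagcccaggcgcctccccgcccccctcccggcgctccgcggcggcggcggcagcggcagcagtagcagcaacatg
The Kcne4 window held 53.2% G and C and 7 CpG dinucleotides, near the median window of all genes (52.4% and 6). Its TATATA stood 31 bases before the start. The Kcnma1 window held 79.2% G and C and 31 CpG dinucleotides, with TATATA 117 bases before the start and 3 matches to GGGCGG, letters known from binding sites of Sp-family factors. Both strands were searched, and TATATA overlaps itself in longer TA repeats. TATATA occurred in 5.25% of 32851 windows of all genes and in 3 of 43 member windows. GGGCGG occurred in 32.7% of all windows and in 19 of the 43. GACCACCCA, the letters of a Gli binding site, occurred in 0.225% of all windows and in 0 of the 43. A window was found for 28 of the 36 members.

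Library totals were 10735431 to 15477297 expected counts in Touchdome, 9295059 to 21358479 in HF and 14647371 to 28249763 in IFE. Touchdome replicate 3 stood apart from the other Touchdome libraries. On the first principal component of all tested genes (59.2% of the variance) it lay at -2.9, with Touchdome replicates 1 and 2 at -37.6 and -40.7, HF at 89.2 to 98.7 and IFE at -75.4 to -57.5. The 5 bulge stem cell markers, all tested, summed to 6469, 7235 and 7121 CPM (counts scaled to library size) in Touchdome replicates 1 to 3, 14220 to 14300 CPM in HF and 7660 to 10450 CPM in IFE, so their sum did not set replicate 3 apart. Krt15 made up most of that sum, at 5629, 6552 and 5712 CPM in Touchdome, 8106 to 8996 CPM in HF and 7147 to 10090 CPM in IFE. The other 4 markers, Cd34, Lhx2, Lgr5 and Postn, were highest in replicate 3 among the Touchdome libraries, with Cd34 at 20.1, 23.8 and 98.8 CPM in Touchdome, 712 to 895 CPM in HF and 1.42 to 2.54 CPM in IFE. The keratinocyte markers summed to 27500 to 32270 CPM in Touchdome, 13580 to 14630 CPM in HF and 36570 to 40440 CPM in IFE, so all 3 sorts carried the defining keratinocyte transcripts. Tnc itself stood at 200, 282 and 288 CPM in Touchdome, 40.6 to 56.9 CPM in HF and 1.13 to 7.16 CPM in IFE.

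Markers of other skin cells were also present, and several differed between the groups. The 5 sebocyte markers summed to 217 to 303 CPM in Touchdome, 639 to 1479 CPM in HF and 225 to 291 CPM in IFE. The 7 melanocyte markers, of which 5 were tested, summed to 5.9 to 29.0 CPM in Touchdome, with the highest value in replicate 3, 8.87 to 31.1 CPM in HF and 3.18 to 3.94 CPM in IFE. Sebocyte markers in HF, and melanocyte markers in Touchdome and HF, thus lay above IFE in every library, as the HF-high channel genes did in HF by mean level. The 5 Langerhans cell markers summed to 213 to 448 CPM in Touchdome, 245 to 560 CPM in HF and 198 to 304 CPM in IFE, and these ranges overlapped. The 6 fibroblast markers, of which 5 were tested, summed to 45.3 to 90.3 CPM in Touchdome, 62.2 to 87.1 CPM in HF and 0.844 to 2.95 CPM in IFE. Among them, Dcn stood at 23.9, 25.3 and 16.4 CPM in Touchdome, 0 to 0.066 CPM in HF and 0 to 0.316 CPM in IFE, while Col1a2 stood at 15.3 to 21.5 CPM in Touchdome, 54.1 to 73.3 CPM in HF and 0 to 0.68 CPM in IFE. Col3a1 overlapped between HF and IFE, and Lum was at 0 in every Touchdome and HF library and had 4 counts in IFE. The 7 Merkel cell markers, of which 2 were tested, summed to 1.52 to 10.6 CPM in Touchdome, 3.37 to 4.0 CPM in HF and 0.114 to 0.316 CPM in IFE. Of these, Krt8 was higher in Touchdome than in IFE (log2 fold change 5.37, adjusted p = 0.0225), at 7.16, 0.805 and 0.996 CPM in Touchdome, 1.69 to 2.56 CPM in HF and 0 to 0.105 CPM in IFE. Krt18, with 38 counts in Touchdome, 6 in HF and 6 in IFE, lay higher in every Touchdome library than in IFE, and Krt20 had 9 counts in Touchdome and 0 in HF and IFE. Atoh1 and Sox2 were at 0 in all 9 libraries. Endothelial markers summed to 1.66 to 2.56 CPM in Touchdome, 0 to 0.64 CPM in HF and 0.631 to 0.774 CPM in IFE. T cell markers summed to 4.48 to 7.16, 0.983 to 2.42 and 2.5 to 4.99 CPM in the same order. Schwann cell markers summed to 29.4 to 36.7, 15.7 to 16.9 and 44.0 to 71.6 CPM. Muscle markers summed to 0.805 to 1.34, 0.316 to 0.721 and 0.871 to 1.97 CPM. The part of these cells in the results was not tested. In bulk samples such as these, fewer cells of a type and less RNA per cell cannot be told apart.

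Counted over all members, potassium channel transcripts were most abundant in HF. The summed level was 146.3 ± 4.74 TPM in Touchdome, 235.2 ± 15.05 TPM in HF and 107.6 ± 3.73 TPM in IFE (SD, n = 3 each), and the 3 groups did not overlap. A single gene, Kcnk2, made up much of the HF sum, and without it the sums were 135.0 ± 7.03 TPM in Touchdome, 164.7 ± 14.1 TPM in HF and 107 ± 3.79 TPM in IFE. By class, tandem-pore genes summed to 49.5 ± 1.96 TPM in Touchdome, 103 ± 13.6 TPM in HF and 38.3 ± 0.678 TPM in IFE. Voltage-gated genes summed to 16.7 ± 2.78, 44.5 ± 3.01 and 8.17 ± 2.54 TPM in Touchdome, HF and IFE. The tandem-pore order rested on Kcnk2, since the other members of the class summed to 38.2 ± 5.27 TPM in Touchdome, 32.9 ± 8.83 TPM in HF and 37.5 ± 0.789 TPM in IFE, with overlap. Voltage-gated genes were highest in HF, and so were the calcium- or sodium-activated genes, at 8.81 ± 1.28 TPM in Touchdome, 18.2 ± 2.44 TPM in HF and 3.57 ± 2.03 TPM in IFE. That class was set by symbol prefix, not by gating. It includes Kcnu1, which alone averaged 5.05 TPM in Touchdome, 6.03 TPM in HF and 1.45 TPM in IFE. Auxiliary genes summed to 28.2 ± 6.25 TPM in Touchdome, 18.9 ± 0.572 TPM in HF and 19.0 ± 0.619 TPM in IFE. The higher Touchdome sum was Kcne4, without which the class stood at 18.8 ± 3.72 TPM in Touchdome, 18.7 ± 0.574 TPM in HF and 19.0 ± 0.632 TPM in IFE, with overlap. Inward rectifiers summed to 43.2 ± 2.08 TPM in Touchdome, 50.2 ± 5.87 TPM in HF and 38.6 ± 2.56 TPM in IFE, and their Touchdome and HF libraries overlapped.

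**Figure D1:**
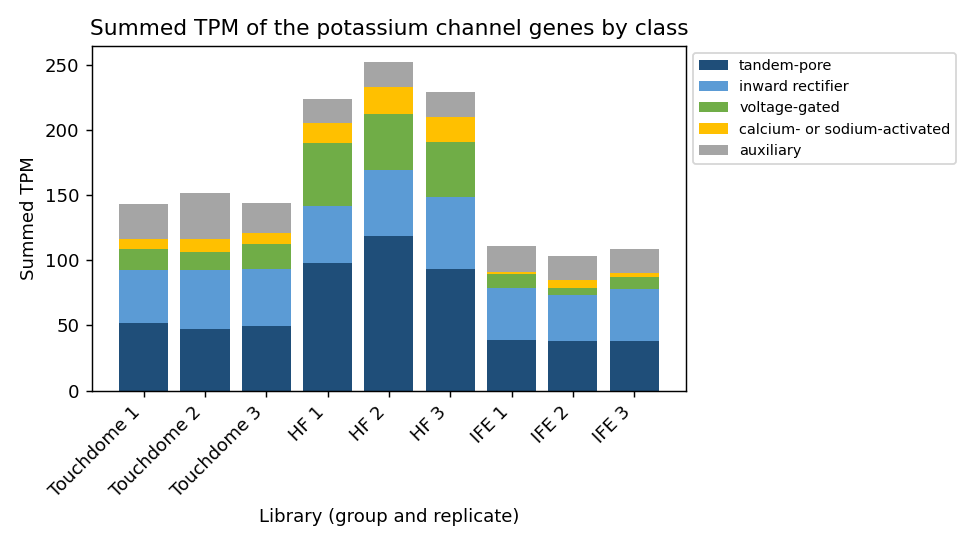
Summed TPM (y axis) of the members in each of the 9 libraries (x axis), stacked by channel class. Touchdome libraries reach 143.3 to 151.8 TPM, HF libraries 223.9 to 252.3 TPM and IFE libraries 103.5 to 110.8 TPM, with no overlap between groups.

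Of the 36 members, 33 had enough counts to be tested. Kcnj13, Kcnn2 and Kcne3 did not. In Touchdome against IFE, 4 of the 33 were higher and 0 lower (edgeR, adjusted p under 0.05), beside 1.30% of all 15046 genes tested in either direction, 1.22% higher and 0.0798% lower. At an unadjusted p under 0.05 the members gave 7 higher and 0 lower, beside 1047 and 558 of all genes. With DESeq2 they gave 5 and 0, beside 446 and 84 of all genes. With limma on log2(TPM + 1) they gave 2 and 0, beside 97 and 0 of all genes. With the replicate number as a block, all genes called numbered 349 in place of 196, and the members gave 4 higher and 0 lower. In Touchdome against HF, 7 were higher and 11 lower, beside 11.8% and 12.8% of all genes (24.6% in all). In HF against IFE, 14 were higher and 5 lower, beside 17.1% and 16.0% of all genes (33.0% in all). The median log2 fold change of the tested members was 0.76 in Touchdome against IFE, -0.42 in Touchdome against HF and 1.01 in HF against IFE, where the median of all genes was 0.005, -0.004 and 0.004. The 3 comparisons share libraries. Since a gene entered through the group where it was highest, these shares describe the members and are no test of them.

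**Figure D2:**
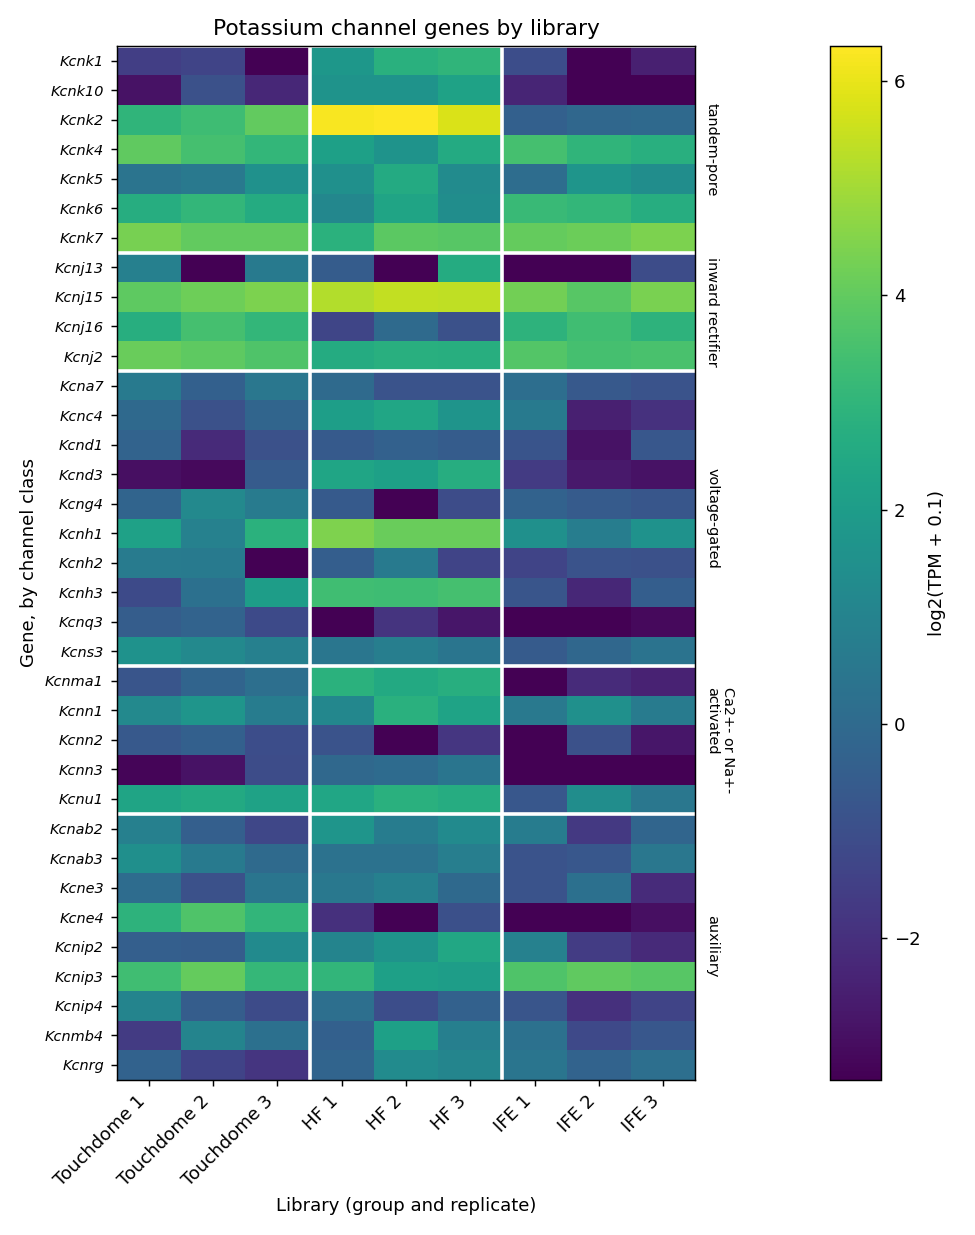
Level of the members (rows, by channel class, 1 member not shown) in each library (columns, by group and replicate), as log2(TPM + 0.1). Kcnk2 is brightest in the 3 HF libraries (55.6 to 80.4 TPM), and Kcne4 is bright in the 3 Touchdome libraries alone (7.37 to 12.8 TPM).

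Kcne4 (ENSMUSG00000047330), an auxiliary subunit that inhibits voltage-gated channels such as those of Kcnq1 and Kcna genes, was found mainly in Touchdome. It stood at 7.37, 12.8 and 8.06 TPM in Touchdome, 0.15, 0 and 0.41 TPM in HF and 0, 0 and 0.03 TPM in IFE. Every Touchdome library lay above every other library. In counts, 535 fell in the Touchdome libraries, 12 in HF and 1 in IFE. The ratio of summed counts, scaled for library size, was 821 in Touchdome over IFE, with a 95% counting interval of 147 to 32500, and the fitted log2 fold change was 9.18 ± 0.85 (SE, adjusted p = 0.000182). Against HF it was 5.74 ± 0.64 (adjusted p = 3.72e-05). HF exceeded IFE by 3.45 ± 1.15 (adjusted p = 0.0356), but these groups overlapped at 0 and the call was lost in 6 of 17 alternatives, among them without HF replicate 3 or any IFE replicate. Among the fibroblast markers given above, Dcn was highest in the same 3 libraries as Kcne4. Col1a2 was instead highest in HF, and Lum was at 0 in Touchdome. The summed endothelial markers, given above, were also highest in the 3 Touchdome libraries, with no overlap. T cell markers were higher in Touchdome than in HF and overlapped between Touchdome and IFE. The part of fibroblasts or other cells in the Kcne4 level was not tested.

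Kcnq3 (ENSMUSG00000056258) encodes a voltage-gated subunit that contributes to the M-current, a brake on firing of neurons. It was low throughout, at 0.62, 0.74 and 0.35 TPM in Touchdome, 0, 0.17 and 0.05 TPM in HF and 0, 0 and 0.02 TPM in IFE. The Touchdome libraries held 71, 59 and 30 counts, the HF libraries 0, 8 and 5, and the IFE libraries 0, 0 and 5. All 3 Touchdome libraries were above the other 6. The log2 fold change was 5.61 ± 1.21 against IFE (adjusted p = 0.0438) and 3.55 ± 1.08 against HF (adjusted p = 0.0295, lost in 5 of 18 alternatives, among them without Touchdome replicate 1 or 2 or HF replicate 1 or 3). The call against IFE was lost in 10 of 19 alternatives (adjusted p up to 0.222), and leaving out any Touchdome or IFE library, or HF replicate 3, was enough.

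Kcnk2 (ENSMUSG00000037624), the leak channel TREK that opens to stretch, heat and lipids, was the most abundant member in HF. It stood at 7.88, 10 and 16.1 TPM in Touchdome, 75.5, 80.4 and 55.6 TPM in HF and 0.67, 0.83 and 0.89 TPM in IFE. No group overlapped another, and Touchdome lay between the other two. Touchdome exceeded IFE by a log2 fold change of 3.82 ± 0.38 (adjusted p = 0.0014) and was below HF by -2.54 ± 0.31 (adjusted p = 0.00027). Without Touchdome replicate 3 the values were 3.49 (adjusted p = 0.000272) and -2.87 (adjusted p = 3.98e-05), and over all alternatives the adjusted p reached at most 0.0125 against IFE and 0.0031 against HF. Kcnma1 (ENSMUSG00000063142), the pore of the large-conductance calcium-activated channel BK, took the same order. It stood at 0.49, 0.76 and 1.04 TPM in Touchdome, 7.08, 5.78 and 6.46 TPM in HF and 0, 0.13 and 0.09 TPM in IFE. The log2 fold change was 3.67 ± 0.58 in Touchdome against IFE (adjusted p = 0.00747) and -2.98 ± 0.44 in Touchdome against HF (adjusted p = 0.000294). Without Touchdome replicate 3 they were 3.32 (adjusted p = 0.0179) and -3.33 (adjusted p = 0.000313). Over the alternatives the adjusted p against HF reached at most 0.00264. Against IFE it reached 0.239, and the call was lost with limma at both pseudocounts and in a fit of just these 2 groups. An annotated gene lies on the opposite strand of each of Kcnk2 and Kcnma1, and since the strand setting is not known, reads of the overlap cannot be told apart. The same limit holds for other members, among them Kcnk1, Kcnj15, Kcnd3, Kcnh3 and Kcnn1. The summed fibroblast markers, given above, were likewise above IFE in Touchdome and HF, while Dcn was not above IFE in HF.

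**Figure D3:**
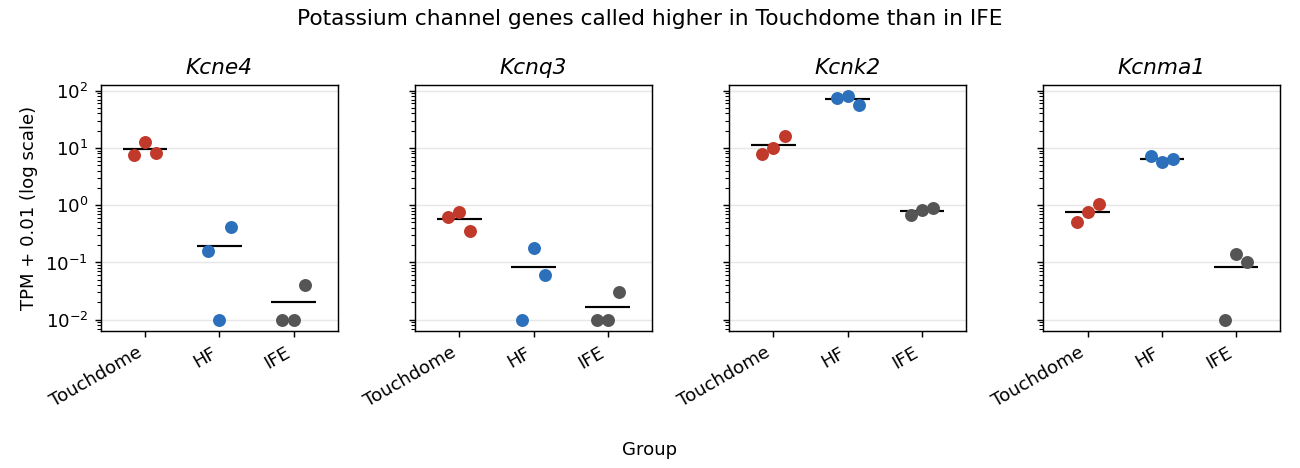
TPM + 0.01 on a log scale (y axis) of the 4 members called higher in Touchdome than in IFE, by group (x axis), with 1 point per library and a line at the mean. Kcne4 and Kcnq3 are highest in Touchdome, while Kcnk2 and Kcnma1 are highest in HF (70.5 and 6.44 TPM on average) with Touchdome between HF and IFE.

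The other tandem-pore genes split between follicle and epidermis. Kcnk1, which encodes the weak leak channel TWIK, stood at 0.25, 0.29 and 0 TPM in Touchdome, 3.35, 6.97 and 7.87 TPM in HF and 0.38, 0 and 0.08 TPM in IFE. Kcnk10, of the TREK family, stood at 0.04, 0.43 and 0.11 TPM in Touchdome, 3.03, 3.03 and 4.59 TPM in HF and 0.1, 0 and 0 TPM in IFE. Both were HF genes, with log2 fold changes of -4.72 ± 0.85 (adjusted p = 0.00121) and -4.42 ± 0.82 (adjusted p = 0.00157) in Touchdome against HF. Kcnk10 held 279 counts in HF and 3 in IFE, a ratio of 119 with a counting interval of 40.3 to 580. Touchdome held 10 counts of it, a ratio to IFE of 5.11 (1.32 to 28.9). Neither gene was called in Touchdome against IFE (adjusted p = 0.893 for Kcnk1 and 0.516 for Kcnk10).

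Kcnk6, a relative of Kcnk1, ran the other way, at 6.43, 8.32 and 6.05 TPM in Touchdome, 2.11, 4.92 and 2.59 TPM in HF and 9.32, 8.38 and 6.33 TPM in IFE. Touchdome and IFE overlapped and HF lay below both, by a log2 fold change of 1.28 ± 0.26 in Touchdome against HF (adjusted p = 0.00291) and -1.44 ± 0.26 in HF against IFE (adjusted p = 0.000844). Kcnk4, the stretch-sensitive leak channel TRAAK, stood at 15.7, 10.99 and 8.19 TPM in Touchdome, 4.37, 3.01 and 5.94 TPM in HF and 11.1, 7.84 and 6.73 TPM in IFE. It was higher in Touchdome than in HF by 1.19 ± 0.39 (adjusted p = 0.04), a call lost in 8 of 18 alternatives, among them without Touchdome replicate 1 or 2, HF replicate 1 or 3, or IFE replicate 1 or 3, and its annotation overlaps Catsperz on the same strand. Kcnk7, which gives no current on its own, was among the most abundant members in every group, at 17.4 ± 2.27 TPM in Touchdome, 12.0 ± 4.22 TPM in HF and 18.5 ± 2.49 TPM in IFE. HF was below IFE by -0.86 ± 0.28 (adjusted p = 0.0293), a call lost in 6 of 18 alternatives, among them without HF replicate 1, IFE replicate 2 or IFE replicate 3. Kcnk5, an alkaline-activated leak channel, ranged from 0.98 to 5.92 TPM over the 9 libraries, was called in no comparison, and its groups overlapped.

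Inward rectifiers were the class with the highest summed level in IFE beside the tandem-pore genes, and they too split. Kcnj16 stood at 6.47, 11.2 and 8.32 TPM in Touchdome, 0.3, 0.9 and 0.42 TPM in HF and 7.53, 10.2 and 7.47 TPM in IFE. The SCA1-positive sorts overlapped, and Kcnj16 was 4.11 ± 0.38 higher on the log2 scale in Touchdome than in HF (adjusted p = 9.63e-06). Kcnj15, with which Kcnj16 can form mixed channels, stood at 15.4, 18.3 and 21.6 TPM in Touchdome, 37.0, 43.3 and 42.8 TPM in HF and 19.2, 14.2 and 20.6 TPM in IFE. It was lower in Touchdome than in HF by -1.10 ± 0.13 (adjusted p = 7.11e-05), so the pair had opposite orders between HF and the other sorts. Kcnj10, another known partner of Kcnj16, did not exceed 0.14 TPM. Kcnj2, a strong inward rectifier that holds the resting potential, stood at 17.2, 15.2 and 12.7 TPM in Touchdome, 6.08, 6.79 and 6.45 TPM in HF and 13.3, 11.2 and 11.7 TPM in IFE. It was higher in Touchdome than in HF by 1.30 ± 0.14 (adjusted p = 2.55e-05) and lower in HF than in IFE by -1.12 ± 0.14 (adjusted p = 4.87e-05). Against IFE, none of the 3 tested inward rectifiers was called in Touchdome (adjusted p of 0.867 for Kcnj15, 0.91 for Kcnj16 and 0.745 for Kcnj2). Neither DESeq2 nor limma called one, and 0 had an unadjusted p under 0.05. Kcnj13, an epithelial rectifier, held 14 counts in Touchdome, 14 in HF and 7 in IFE and was not tested.

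The ether-a-go-go genes led the voltage-gated class in HF. Kcnh1 (EAG) stood at 4.49, 1.79 and 7.13 TPM in Touchdome, 22.2, 17.3 and 17.3 TPM in HF and 2.79, 1.6 and 2.92 TPM in IFE. Kcnh3 (ELK) stood at 0.35, 1.07 and 4.02 TPM in Touchdome, 10.2, 10.1 and 11.04 TPM in HF and 0.49, 0.11 and 0.63 TPM in IFE. For both, HF lay above every other library and Touchdome replicate 3 was the highest Touchdome library. The log2 fold change in Touchdome against HF was -2.04 ± 0.45 for Kcnh1 (adjusted p = 0.0126) and -3.23 ± 0.53 for Kcnh3 (adjusted p = 0.00101). Without Touchdome replicate 3 the values were -2.53 (adjusted p = 0.0026) and -3.88 (adjusted p = 0.000261), and the highest adjusted p over the alternatives was 0.0474 for Kcnh1 and 0.0165 for Kcnh3. In HF against IFE they were 2.86 ± 0.47 (adjusted p = 0.00193) and 4.41 ± 0.56 (adjusted p = 0.000117). Kcnh2 (ERG) was called in no comparison. Its TPM and counts gave different orders, with 0.98 TPM from 41 counts in Touchdome, 0.79 TPM from 8 counts in HF and 0.393 TPM from 32 counts in IFE.

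The A-type channel gene Kcnd3, whose current switches off quickly, stood at 0.03, 0.02 and 0.58 TPM in Touchdome, 4.97, 4.42 and 6.37 TPM in HF and 0.22, 0.06 and 0.04 TPM in IFE. In Touchdome against HF the log2 fold change was -4.69 ± 0.74 (adjusted p = 0.000977), and without Touchdome replicate 3 it was -7.18 (adjusted p = 6.98e-07, the lowest over the alternatives, where the highest was 0.00706). Of the 25 Touchdome counts, 22 came from replicate 3. Kcnd1, of the same family, stood at 0.75, 0.12 and 0.43 TPM in Touchdome, 0.56, 0.69 and 0.61 TPM in HF and 0.47, 0.04 and 0.52 TPM in IFE. It was called in HF against IFE alone (2.68 ± 0.75, adjusted p = 0.0148). That call was lost in 5 of 17 alternatives, with limma at both pseudocounts and without HF replicate 3, IFE replicate 1 or IFE replicate 2. Its TPM differed less than its counts, with 0.62 TPM from 67 counts in HF and 0.343 TPM from 14 counts in IFE. Kcnc4, a fast-deactivating channel, stood at 0.88, 0.42 and 0.78 TPM in Touchdome, 4.14, 5.15 and 3.13 TPM in HF and 1.45, 0.08 and 0.16 TPM in IFE. It was lower in Touchdome than in HF by -2.61 ± 0.79 (adjusted p = 0.0352), a call lost in 7 of 18 alternatives, among them without any 1 HF library or any 1 Touchdome library. HF exceeded IFE in Kcnc4 by 2.71 ± 0.785 (adjusted p = 0.0218). That call was lost in 4 of 18 alternatives, with no filter or without HF replicate 1, HF replicate 2 or IFE replicate 3. Kcna7, of the Shaker-related family, ranged over 0.45 to 1.45 TPM and, like Kcng4 and Kcns3, was called in no comparison of the main test. Kcng4 and Kcns3 encode silent subunits that modify other voltage-gated channels, and their 3 Touchdome libraries lay above all HF and IFE libraries, at 0.76 to 2.24 TPM for Kcng4 and 1.75 to 2.96 TPM for Kcns3. Against IFE their adjusted p was 0.668 and 0.337. Against HF, Kcng4 had a log2 fold change of 2.26 ± 0.77 (adjusted p = 0.0501), and it was called in 4 of 17 alternatives, with DESeq2, limma on log2(TPM + 1), no filter or without IFE replicate 2.

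Among the small-conductance calcium-activated channels, Kcnn3 was a follicle gene. It stood at 0.01, 0.04 and 0.37 TPM in Touchdome, 0.85, 0.94 and 1.25 TPM in HF and 0 in every IFE library. With 155 counts in HF and 0 in IFE, HF was at least 66.1-fold higher, taken against 3 counts over the IFE group (adjusted p = 0.00134). Touchdome held 21 counts, at least 10.7-fold higher than IFE on the same terms, but 18 of them came from replicate 3 and the difference was not called (adjusted p = 0.135, and 0.511 without that library). It was called with DESeq2 and with no filter on low counts, and the adjusted p ranged from 0.00547 to 0.799 over the alternatives. In Touchdome against HF it was called without replicate 3 (-4.68, adjusted p = 0.00685) and not in the edgeR fit of all libraries (-2.45 ± 0.95, adjusted p = 0.0891), while 5 other alternatives that kept every library also called it, namely DESeq2, limma at both pseudocounts, no filter and the replicate block. Kcnn1 stood at 2.25, 3.14 and 1.57 TPM in Touchdome, 2.09, 6.82 and 4.71 TPM in HF and 1.38, 2.74 and 1.53 TPM in IFE. It was called lower in Touchdome than in HF (-1.06 ± 0.36, adjusted p = 0.0465) although their TPM values overlapped, and the call was lost in 12 of 18 alternatives, among them without any 1 Touchdome library, HF replicate 2 or 3, or IFE replicate 1 or 3. HF exceeded IFE by 1.19 ± 0.36 (adjusted p = 0.0207), lost without HF replicate 2 or 3 or IFE replicate 3. Kcnu1, whose channel is known from sperm, stood at 4.91, 5.66 and 4.57 TPM in Touchdome, 5.1, 6.82 and 6.17 TPM in HF and 0.51, 2.53 and 1.32 TPM in IFE. Touchdome and HF libraries lay above IFE for Kcnu1, but the differences from IFE were not called (adjusted p = 0.531 in Touchdome and 0.0718 in HF). In HF against IFE, Kcnu1 was called in 5 of 18 alternatives (adjusted p down to 0.00258), with DESeq2, limma at both pseudocounts, the replicate block or without IFE replicate 2. Kcnn2, of the small-conductance family, held 18 counts in Touchdome, 19 in HF and 7 in IFE and was not tested.

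The auxiliary genes beside Kcne4 held few calls. Kcnip3, which encodes a Kcnd partner also known as the transcriptional repressor DREAM, stood at 10.1, 16.4 and 8.49 TPM in Touchdome, 7.98, 4.38 and 4.05 TPM in HF and 12.6, 15.6 and 14.2 TPM in IFE. It was higher in Touchdome than in HF by 1.39 ± 0.27 (adjusted p = 0.00202) and lower in HF than in IFE by -1.88 ± 0.27 (adjusted p = 0.000146). Kcnip2, another Kcnd partner, was lower in Touchdome than in HF by -2.07 ± 0.64 (adjusted p = 0.0317). That call was lost in 6 of 18 alternatives, among them without any 1 Touchdome library or without HF replicate 3, and the TPM values overlapped. Like Kcnd3, Kcnip2 was higher in HF than in IFE (2.73 ± 0.66, adjusted p = 0.00609), a call lost without HF replicate 3. The beta subunit genes Kcnab2 and Kcnab3, Kcnip4, the BK partner Kcnmb4 and Kcnrg, a soluble regulator of channel assembly, were called in no comparison. Over the 9 libraries they ranged from 0.2 to 3.17 TPM for Kcnab2, 0.46 to 2.73 TPM for Kcnab3, 0.15 to 1.94 TPM for Kcnip4, 0.22 to 4.44 TPM for Kcnmb4 and 0.18 to 2.45 TPM for Kcnrg. The Kcnrg libraries of Touchdome lay below all others, and Kcnrg was called lower in Touchdome than in HF in 3 of 16 alternatives, with DESeq2 and limma at both pseudocounts (adjusted p down to 0.0372). Kcne3, which encodes a single-span subunit that keeps epithelial channels open, at 13, 23 and 18 counts in Touchdome, HF and IFE, was not tested.

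**Figure D4:**
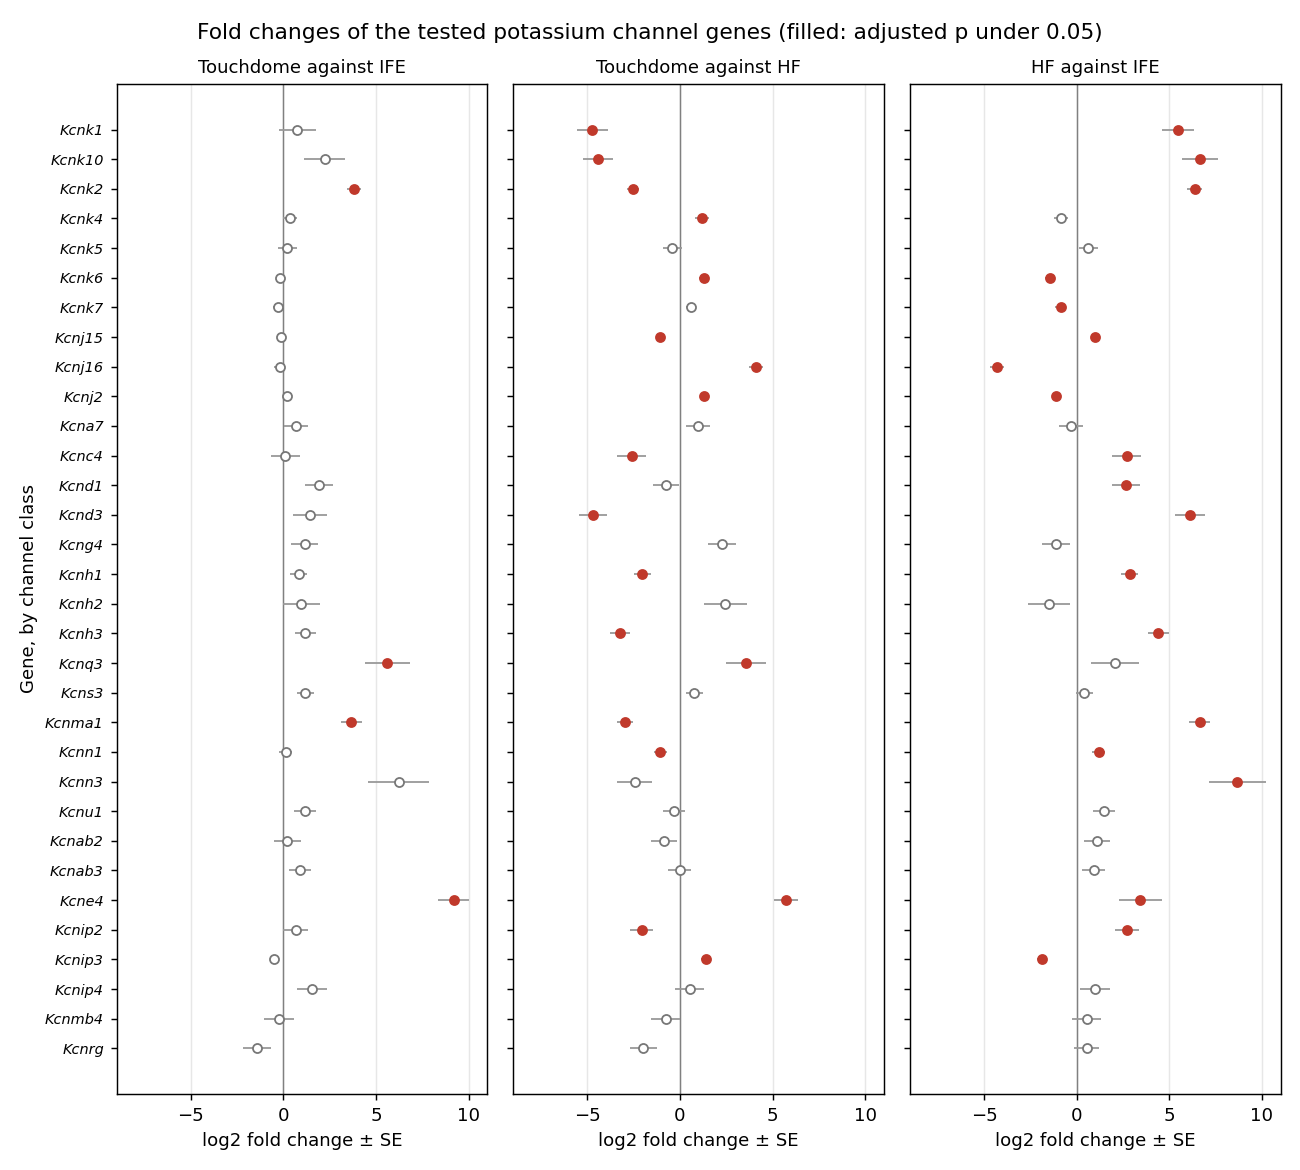
Log2 fold change ± SE (x axis) of the tested members (rows, by channel class, 1 member not shown) in the 3 comparisons, with filled points for adjusted p under 0.05. In Touchdome against IFE 4 points are filled, all to the right of 0, and in HF against IFE 14 are filled to the right and 5 to the left.

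Together, 9 members were called higher in HF than in both other sorts without a call between Touchdome and IFE. These were Kcnk1, Kcnk10, Kcnj15, Kcnc4, Kcnd3, Kcnh1, Kcnh3, Kcnn1 and Kcnip2. The calls of Kcnc4, Kcnn1 and Kcnip2 in Touchdome against HF were lost in several alternatives, as given above. In HF against IFE, the call was lost in 4 of 18 alternatives for Kcnc4, 5 of 18 for Kcnn1 and 1 of 18 for Kcnip2. Another 4, Kcnk6, Kcnj16, Kcnj2 and Kcnip3, were called lower in HF than in both. Kcnk2 and Kcnma1 were called in all 3 comparisons with Touchdome between HF and IFE. Of all genes, 24.6% were called in Touchdome against HF, 33.0% in HF against IFE and 1.30% in Touchdome against IFE. How many of all genes share each pattern was not counted, so these counts describe the members only. The place of Touchdome between IFE (0) and HF (1) on the scale of log2(CPM + 0.1) was 0.6 for Kcnk2 and 0.51 for Kcnma1, and 0.7 for Kcnd1 and 0.55 for Kcnn3, which were not called between Touchdome and IFE. For Kcnn3, 18 of the 21 Touchdome counts came from replicate 3. The added 0.1 weighs on the place of genes with few IFE counts, among them Kcnn3 with 0, Kcnk10 with 3 and Kcnma1 with 9. It was 0.03 for Kcnc4, 0.1 for Kcnn1, 0.11 for Kcnk1, 0.21 for Kcnd3, 0.22 for Kcnip2, 0.25 for Kcnk10, 0.27 for Kcnh3 and 0.29 for Kcnh1. The median over the 13 members higher in HF than in IFE by at least 1 on the log2 scale was 0.27, beside 0.31 over 1710 such genes of all. Over the 4 members lower in HF it was 0.08, beside 0.1 over 993 genes.

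The Touchdome libraries differed among themselves for many of the HF-high genes. Of the 14 members higher in HF than in IFE, 8 were highest in Touchdome replicate 3, 4 in replicate 2 and 2 in replicate 1. How many of all genes higher in HF share this order was not counted, so these counts describe the members only. On the first principal component of all tested genes, replicate 3 was also the Touchdome library nearest to HF, as given above. As a percent of the HF mean TPM, Kcnd3 stood at 0.571, 0.381 and 11 in Touchdome replicates 1 to 3, with IFE at 2.03. Kcnh3 stood at 3.35, 10.2 and 38.5, with IFE at 3.93, and Kcnn3 at 0.987, 3.95 and 36.5, with IFE at 0. The bulge markers Cd34 (2.31, 2.87 and 12.8), Lhx2 (3.75, 4.93 and 14.1), Lgr5 (3.14, 3.04 and 13.4) and Postn (18.7, 15.5 and 31.1) were also highest in Touchdome replicate 3. Krt15 was not, at 60.5, 71.5 and 64.5, with IFE at 80.7. For Kcnk2 the shares were 11.2, 14.2 and 22.9, with IFE at 1.13, so the first 2 libraries were already well above IFE. Kcnma1 gave 7.61, 11.8 and 16.1, with IFE at 1.14. Whether follicle cells in the Touchdome sort have a part in these levels was not tested.

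**Figure D5:**
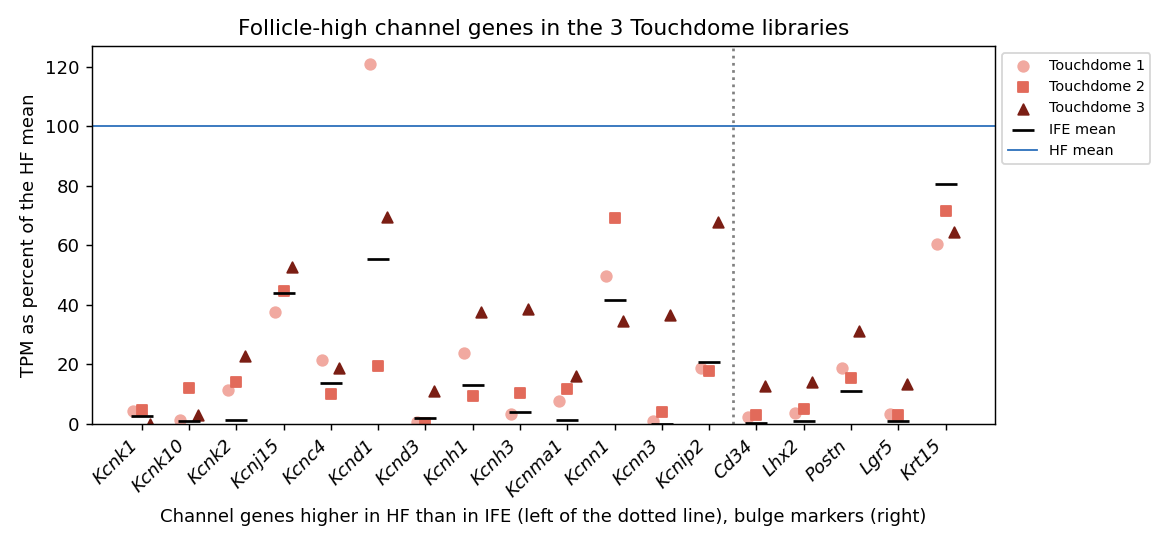
TPM of each Touchdome library and of the IFE mean as a percent of the HF mean (y axis) for 13 members higher in HF than in IFE (left of the dotted line; Kcne4 is left out because it is higher in Touchdome) and 5 bulge markers (right). Touchdome replicate 3 (dark triangles) is above the other Touchdome libraries for Kcnk2, Kcnj15, Kcnd3, Kcnh1, Kcnh3, Kcnma1, Kcnn3 and Kcnip2, and for Cd34, Lhx2, Postn and Lgr5. For Kcnip2 the gap is in TPM, while its CPM values were close, at 0.895, 0.715 and 0.996 in Touchdome replicates 1 to 3.

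Partner genes outside the Kcn names and genes of potassium transport were compared in the same fit. Of 24 partner genes, 14 were tested. Beside 1.22% higher and 0.0798% lower among all genes, 1 of them was higher and 0 lower in Touchdome against IFE. That gene was Dlg4, a scaffold that gathers channels at membranes, with 3.48, 7.09 and 4.15 TPM in Touchdome, 8.9, 7.58 and 14.0 TPM in HF and 0.98, 0.54 and 1.01 TPM in IFE. Touchdome again lay between, 2.34 ± 0.31 above IFE (adjusted p = 0.00243) and -1.51 ± 0.28 against HF (adjusted p = 0.00144, not called with limma). In HF against IFE, 5 partner genes were higher (Dpp6, Amigo1, Dlg4, Hcn3 and Hcn4) and 1 was lower (Vapa). Of all genes, 17.1% were higher and 16.0% lower in that comparison. The call of Hcn3 was lost in 11 of 18 alternatives, among them the replicate block, without any 1 HF or IFE library or without Touchdome replicate 1. That of Dpp6 was lost in 8 of 17, among them without any 1 HF library, IFE replicate 1 or 2, or Touchdome replicate 2 or 3, and that of Vapa in 7 of 18, among them without HF replicate 2 or 3 or IFE replicate 1 or 2. In Touchdome against HF, 0 were higher and 3 lower (Amigo1, Dlg4 and Hcn4, the last lost without Touchdome replicate 1 or 2 or HF replicate 1 or 2), and at an unadjusted p under 0.05, with DESeq2 and with limma 0 were higher too. Beside these stood 11.8% of all genes higher and 12.8% lower.

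Of 31 potassium transport genes, 20 were tested, and edgeR, DESeq2 and limma each called 0 of them higher and 0 lower in Touchdome against IFE, with 1 higher and 2 lower at an unadjusted p under 0.05. In Touchdome against HF, 6 were higher and 3 lower, beside 11.8% and 12.8% of all genes. In HF against IFE, 4 were higher and 8 lower, beside 17.1% and 16.0% of all genes. The sodium, calcium and potassium exchanger gene Slc24a3 had the greatest difference among those called, at 46.0, 60.4 and 42.8 TPM in Touchdome, 6.23, 6.02 and 4.28 TPM in HF and 71.5, 54.5 and 64.6 TPM in IFE. It was higher in Touchdome than in HF by 3.37 ± 0.22 (adjusted p = 9.09e-07). The sodium pump subunit Atp1b3 was likewise higher in Touchdome than in HF (0.91 ± 0.13, adjusted p = 0.000197), and the kinase gene Wnk4, which acts on chloride and potassium transport, was lower (-1.91 ± 0.17, adjusted p = 4.96e-06).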

How the data were processed

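The expected counts (estimated counts per gene) and TPM values deposited by the authors were used for 9 libraries in 3 groups. The build mm39 and the tools RSEM 1.3.3, STAR 2.7.9a and DESeq2 1.38.2 are named in the submitters' processing notes. What each did, the annotation and strandedness were not given in the sources used here, so antisense and overlapping genes are uncertain. Symbols came from GENCODE for GRCm38, another build, and 52081 of 55357 identifiers had one.

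Counts were rounded, filtered with filterByExpr (minimum count 10, total 15; 15046 genes) and scaled by TMM. The robust quasi-likelihood test of edgeR 4.0.16 (R 4.3.3) was run with all 9 libraries in 1 fit, with Benjamini-Hochberg adjustment over all genes and a threshold of 0.05. The SE is the log2 fold change divided by the root of F. DESeq2 1.42.0, limma 3.58.1, other filters and leaving out each library were alternatives. Levels are TPM where lengths matter and CPM for marker sums. With 3 counts as the limit that a count of 0 allows, the limit was 0.114 to 0.316 CPM, depending on the library, and intervals and limits cover counting error only. Within groups, libraries differed beyond sampling noise (chi-square per degree of freedom 17.1 to 76.7). The script was tested on simulated data.

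Members are named except where a result is not reported here. Full statistics go to members called in Touchdome against IFE and to those with the highest levels or greatest fold changes of each class. The members and lists were chosen with earlier results of these data known. Touchdome and IFE libraries of the same replicate number deviated together (Pearson's r 0.146, 0.173 and 0.203 across genes), so the numbers may pair them. The main test did not use this pairing. The replicate number entered as a block among the alternatives only. Protein sequences were not used here.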

Additional observations from a re-analysis of the deposited data

How the results depend on the processing

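Of 3607 gene-level values recomputed under alternatives, 0 changed sign with a call in the main or the alternative fit. Sign changes without a call did occur. Kcnd3 in Touchdome against IFE had a log2 fold change of 1.448, and -1.045 without Touchdome replicate 3. Low counts limit Kcnq3, Kcnn3, Kcnk10 and the IFE values of Kcne4. With limma at either pseudocount, 2 channel genes were higher in Touchdome than in IFE, against 4. All genes called in Touchdome against IFE numbered 196, and 349 with the replicate block, 105 with 2 groups in the fit, 506 with both, 530 with DESeq2, 97 with limma on log2(TPM + 1) and 310 with no filter on low counts. With the block and 2 groups, Touchdome against IFE gave 1 transport gene higher and 1 lower. The block left the 4 channel calls of Touchdome against IFE in place. Same-numbered HF libraries did not deviate together with the others (r from -0.026 to 0.07), and there the block ended the calls of Kcnk4 (adjusted p = 0.0563) and Kcnn1 (0.0651) in Touchdome against HF and called Kcnn3 (0.041), and Kcnu1 in HF against IFE (0.0334). In HF against IFE, partner genes were 3 higher and 2 lower with no filter, and 0 lower with 2 groups or limma, where 4 transport genes were lower with limma. Without Kcnk2, the summed TPM was 135.0 in Touchdome and 164.7 in HF. Leaving out 1 library gave 3 to 4 channel genes higher and 0 to 0 lower in Touchdome against IFE, 5 to 8 and 8 to 11 in Touchdome against HF, and 10 to 14 and 4 to 5 in HF against IFE. All genes called ranged from 112 to 232, 2745 to 4346 and 4053 to 4992 in the same order. Partner genes lower in Touchdome than in HF ranged from 2 to 3, and those of HF against IFE from 3 to 4 higher and 0 to 2 lower. Transport genes ranged from 4 to 8 higher and 2 to 3 lower in Touchdome against HF, and from 4 to 5 higher and 6 to 8 lower in HF against IFE. The cause of these shifts was not tested. The fit with replicate block and 2 groups, and the class sums without Kcnk2 or Kcne4, were chosen after seeing the data.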

Other observations

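5 noncoding antisense genes carry Kcn names and were kept out of the members. Kcnq1ot1, the antisense transcript of the Kcnq1 locus, stood at 1.03, 0.25 and 0.47 TPM in Touchdome, 0.78, 0.75 and 0.5 TPM in HF and 0.62, 0.53 and 0.3 TPM in IFE, while Kcnq1 itself had 0 counts in every library. The groups overlapped. The remaining antisense genes held at most 6 counts in any library.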
